A study of Oryctolagus cuniculus with 3 samples.

Results

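DNA replication and S phase genes were followed through 3 stages of differentiation in RCE1(5T5), an established line of rabbit corneal epithelial cells. The genes were chosen by name, from a list of 49 factors that license, open and copy DNA or supply its building blocks. Of these, 45 stand in the deposited tables under their symbol, out of 20536 gene names, and all 45 reached a level of 1 CPM, counts per 1000000 fragments, in a library. The other 4, POLD1, CHAF1A, UHRF1 and EXO1, were not analysed here. RNA was sequenced at day 4 of culture, when the cells were non-differentiated, at day 6, when they were committed, and at day 10, when they were terminally differentiated, with 1 library each time. All 3 cultures were of the same line and grew in serum-containing medium with insulin, transferrin, hydrocortisone, triiodothyronine, cholera toxin, adenine and EGF, on mouse 3T3 feeder cells treated with mitomycin C, which were removed with EDTA before extraction.

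A cell copies its genome once per division. In G1 phase the origin recognition complex, with CDC6 and CDT1, loads the MCM2 to MCM7 ring onto DNA. In S phase CDC45 and the GINS complex turn that ring into a moving helicase, polymerase alpha lays down primers, and polymerases delta and epsilon extend them, held to DNA by the PCNA clamp. Many of these genes are targets of E2F transcription factors and are expressed mainly in cycling cells. In the cornea, dividing cells lie in the basal layer and stop dividing as they move up and differentiate.

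The libraries held 10171693, 12582706 and 10899578 fragments on days 4, 6 and 10. With 1 library a stage no difference has a replicate check and no test of conditions could be run, and stage, day and library cannot be told apart. Brackets give 95% intervals for counting error only. The words rose and fell are used where log2(CPM + 1) differed by at least 1, which is 2-fold on that scale and understates the change of low genes. Folds given for a gene divide CPM by CPM, with nothing added. All 11 corneal and basal epithelial markers in the tables were measured, with summed levels of 18927, 27552 and 19174 CPM. From day 4 to day 10, 5 of them rose, 0 fell and 6 had differences below 0 (median -0.04). Among those that rose, KRT3, the corneal type II keratin, was at 149.6, 954 and 2018 CPM; its partner KRT12 had no fragment on day 4 and was at 19.3 and 120.7 CPM after that. In RNA from a whole culture, fewer cycling cells and less RNA per cell cannot be told apart. The 18 fibroblast and feeder markers moved in the same direction as most replication genes: their summed level was 7781, 5012 and 3159 CPM, and 14 of the 17 measured fell and 1 rose from day 4 to day 10, while LUM had no fragment in any library. Their part in the results was not tested. Markers of other cell types were low, with summed levels between 8.01 and 8.87 CPM for endothelium (PECAM1 at 0 fragments), up to 69.5 CPM for leukocytes, of which CD68 made 68 CPM (TYROBP, FCER1G and CD3E at 0), and up to 35.6 CPM for melanocytes (TYR, DCT and MLANA at 0).

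Replication genes fell mainly after commitment. The second step, day 6 to day 10, was longer than the first, day 4 to day 6, and changes were not scaled to the length of a step. Between day 6 and day 10, 29 of the 45 fell (64.4%) and 1 rose, with a median log2 difference of -1.28; over all 12818 measured genes 7.1% fell and 8.25% rose, and the median was -0.01. Between day 4 and day 6, 4 of 45 fell (8.89%) and 0 rose, where 6.73% of all genes fell and 8.06% rose. On this scaling the share that fell was thus near that of all genes, which did not hold on others, given below. The median of the 45 was nevertheless -0.37 against 0.00 for all genes, and 41 of the 45 values lay below 0. Over the whole interval from day 4 to day 10, 30 fell (66.7%) and 1 rose, with a median of -1.69, against 15.8% and 17.1% of all genes and a median of 0.01. The summed level of the 45 genes was 4164, 3288 and 1734 CPM on days 4, 6 and 10. The count for the first step depended on scaling: without trimmed mean of M values (TMM) factors 9 fell, where the median of all genes was -0.14 and 9.49% of them fell and 6.14% rose, and with the deposited TPM 12 fell, where it was -0.30 and 13.2% of all genes fell.

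**Figure D1:**
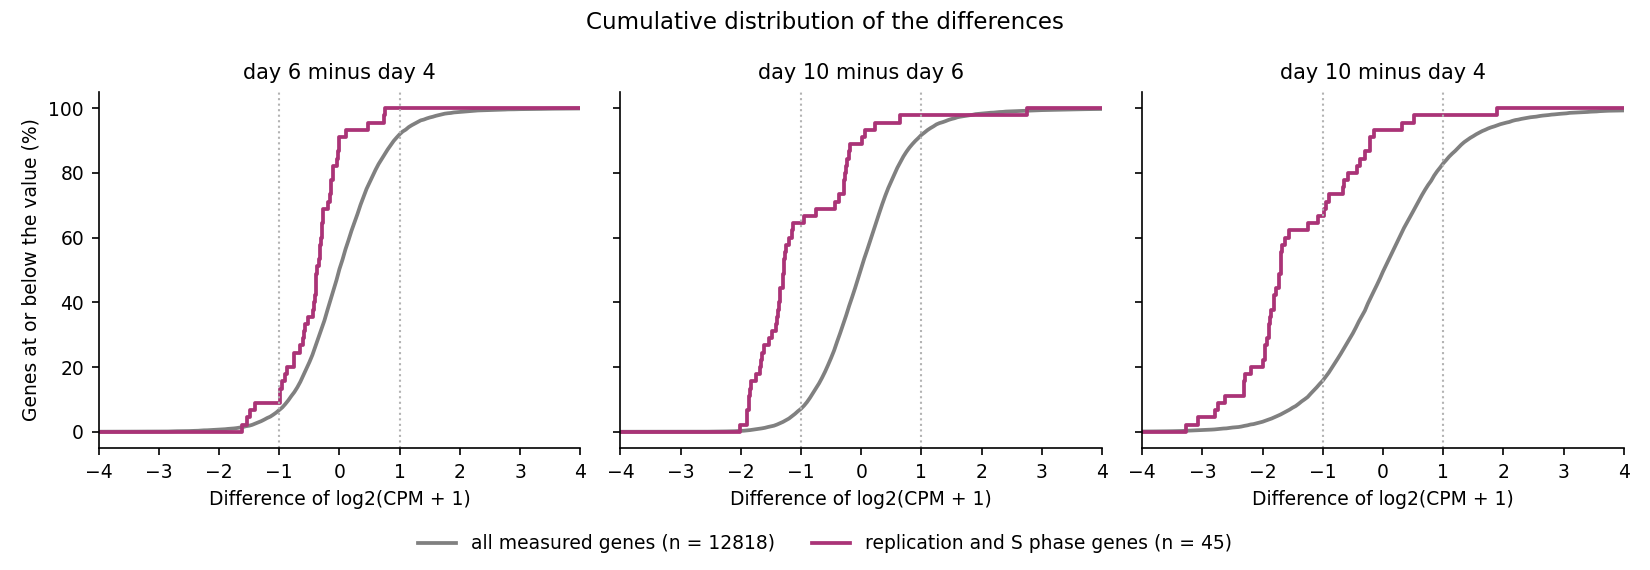
Cumulative share of genes (vertical axis, %) by the difference of log2(CPM + 1) (horizontal axis) in the 3 comparisons, for all 12818 measured genes (grey) and the 45 replication and S phase genes (purple). Dotted lines mark a difference of 1 in either direction; the purple line lies left of the grey one over most of its course, by the most in the comparisons that include day 10, and its last step in the day 10 panels is ORC6.

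Of the 4 licensing factors 3 fell and 1 rose in the second step, the only rise among the 45 genes. CDC6, the ATPase that recruits the MCM ring to origins, was at 34.2, 12.4 and 3.2 CPM on days 4, 6 and 10. It fell at each step, by 2.77-fold [2.28 to 3.37] and then by 3.86-fold [2.64 to 5.78], in all 10.7-fold [7.51 to 15.7]. CDT1, its partner in loading, stood at 28.3, 26.3 and 11.3 CPM, so its fall of 2.33-fold [1.88 to 2.89] came in the second step. ORC1, the largest subunit of the origin recognition complex, was at 26.2, 19.1 and 7.16 CPM and fell 2.66-fold [2.05 to 3.5] in that step as well. CDT1 and ORC1 overlap other genes in the RefSeq table, APRT (10.4, 10.1 and 8.29 CPM) and PRPF38A (74.1, 52.2 and 42.7 CPM). ORC1 also overlaps TUT4 there, by 22573 bases, and no level was found under that symbol. The part of the fragments of these neighbours was not tested.

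ORC6, the smallest subunit of the same complex, went the other way. It was at 22.9, 12 and 87.2 CPM on the 3 days, from 249, 145 and 926 fragments, so the day 10 library alone was high. It rose 7.25-fold [6.08 to 8.7] from day 6 to day 10 and ended 3.82-fold [3.31 to 4.41] above day 4, while between day 4 and day 6 its log2 difference was -0.87. The ORC6 gene overlaps VPS35, which codes for a subunit of the retromer, by 3 bases in the RefSeq annotation of mOryCun1.1. VPS35 was at 182, 178 and 395 CPM and rose 2.22-fold [2.11 to 2.34] in the same step. Whether fragments of VPS35 entered the ORC6 count was not tested; the VPS35 to ORC6 ratio was 7.98, 14.8 and 4.53 fragments, and reads per fragment of ORC6 were 1.47, 1.48 and 1.42, against member medians of 1.45, 1.48 and 1.45.

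The 6 subunits of the replicative helicase fell together in the second step. MCM2 was at 195.7, 189.8 and 52.6 CPM on days 4, 6 and 10. MCM5 was at 250.7, 200 and 54 CPM, and MCM7 at 325, 265.6 and 109.8 CPM. All 6 fell between day 6 and day 10, by 2.42-fold [2.26 to 2.59] for MCM7 at the least and 3.71-fold [3.38 to 4.07] for MCM5 at the most. None fell 2-fold between day 4 and day 6, but they were not alike there. MCM2 was at 0.97 of its day 4 level [0.914 to 1.03], while MCM4, at 208, 110 and 41.6 CPM, was at 0.53 [0.495 to 0.567], and MCM3 and MCM6 lay between, at 0.661 and 0.697. MCM4 was called a fall in that step without TMM factors and with the deposited TPM. From day 4 to day 10 the helicase genes fell between 2.96-fold (MCM7) and 5-fold (MCM4 [4.52 to 5.55]).

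Of the factors that activate the helicase, MCM10 fell early and most GINS genes late. MCM10, which acts as the helicase starts to move, was at 32.7, 10.6 and 3.86 CPM and fell 3.08-fold [2.51 to 3.8] by day 6 and 8.46-fold [6.11 to 12] by day 10. CDC45 was at 49.3, 38.6 and 11.9 CPM and fell 3.25-fold [2.66 to 3.99] after day 6. GINS1 was at 37.9, 35 and 9.04 CPM, GINS2 at 27.2, 22 and 4.71 CPM, and GINS4 at 25.2, 25.1 and 6.03 CPM. These 3 subunits of the GINS complex fell between 3.87-fold and 4.67-fold in the second step, with first-step ratios of 0.923 [0.804 to 1.06], 0.809 [0.683 to 0.958] and 0.996 [0.843 to 1.18]. The fourth subunit, GINS3, had another course, with 75, 36 and 32 fragments on the 3 days. Its log2 difference was -0.98 in the first step and 0.01 in the second, and as the lowest member of the group on day 4 (6.88 CPM) it is also among the least precise.

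**Figure D2:**
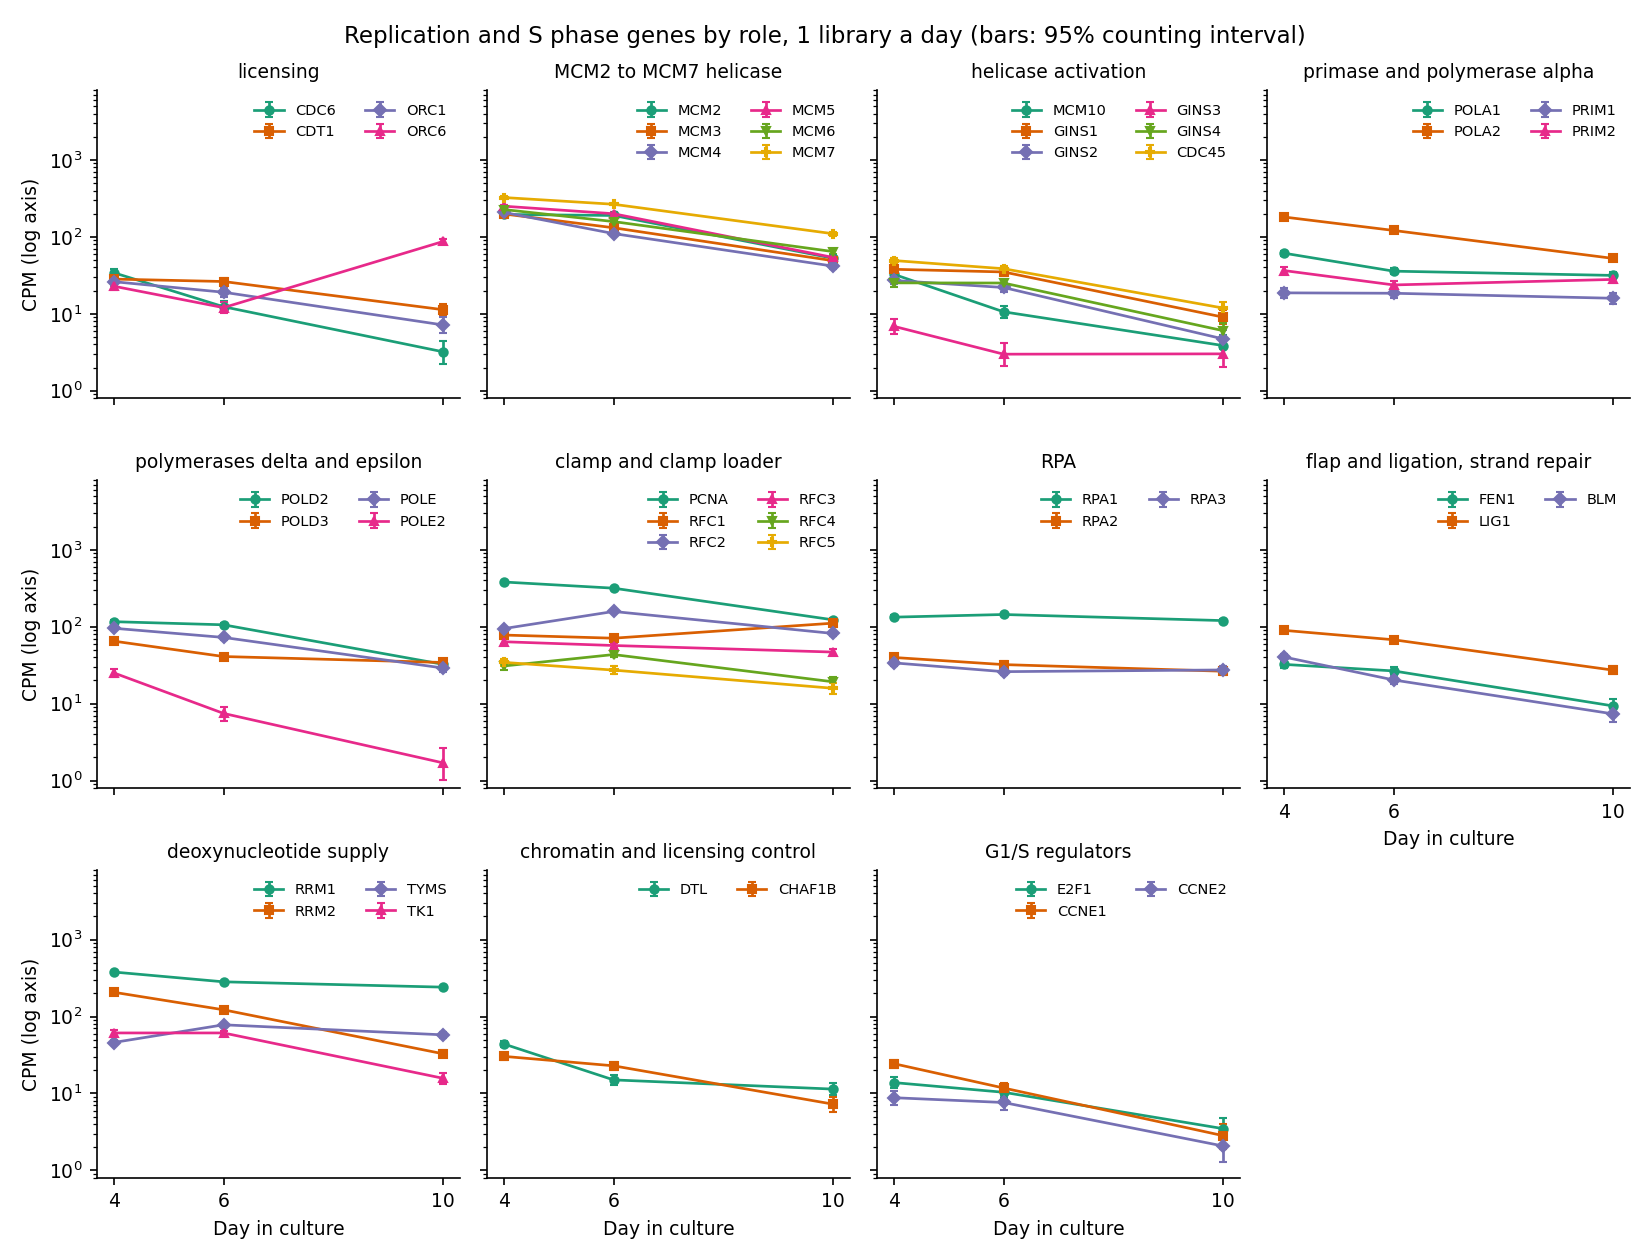
CPM (log axis) on days 4, 6 and 10 in culture for the 45 genes, in 11 panels by role, with 1 library a day; bars are 95% counting intervals. Most lines bend down between day 6 and day 10, the RPA genes change by less than 2-fold, and ORC6 climbs from 12 to 87.2 CPM.

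Polymerase genes split by subunit. POLE2, the second subunit of the leading-strand polymerase epsilon, showed the largest fall of the 45 genes: it was at 25.1, 7.46 and 1.7 CPM on days 4, 6 and 10, and fell 3.37-fold [2.65 to 4.32] and then 4.4-fold [2.63 to 7.76], in all 14.8-fold [9.21 to 25.4]. The last value rests on 18 fragments on day 10. The catalytic subunit POLE was at 95.5, 72.6 and 29 CPM and fell 2.5-fold [2.19 to 2.86] in the second step. POLE overlaps LOC108175792 by 533 bases in the RefSeq annotation, and no level was found under that symbol. Of polymerase delta, the accessory subunit POLD2 was at 116, 106 and 32.4 CPM and fell 3.27-fold [2.9 to 3.69] after day 6. POLD3, another subunit of that enzyme, was at 65, 41 and 34.3 CPM and passed the threshold in neither step nor over both (log2 difference -0.90), although it was called a fall over both without TMM factors and with TPM.

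The genes of the primer-making complex also differed among themselves. POLA2, the regulatory subunit of polymerase alpha, was at 181.5, 121 and 52.5 CPM and fell 2.31-fold [2.09 to 2.55] after day 6. The catalytic POLA1 was at 61.5, 35.8 and 31.6 CPM, with a log2 difference of -0.94 over both steps, and most of that difference lay before day 6; without TMM factors and with TPM it was called a fall over both. Over both steps the primase subunits differed least of the 4 genes. PRIM1 was at 18.7, 18.5 and 15.9 CPM, and all 3 of its counting intervals included a ratio of 1. PRIM2 was at 36.5, 23.7 and 28 CPM, and neither gene passed the threshold in any comparison.

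PCNA, the sliding clamp, was the member with the highest level per length in all 3 libraries, at 469, 309 and 116.9 deposited TPM. In counts it was at 381, 317 and 122.8 CPM on days 4, 6 and 10, with a ratio of 0.831 [0.795 to 0.869] in the first step. The genes of the clamp loader, which opens the PCNA ring, did not share one course. RFC1, the large subunit, was at 77.9, 70.9 and 111 CPM, with a ratio of 1.57 [1.44 to 1.71] in the second step, under the threshold. RFC2 was at 94.4, 157.8 and 81.7 CPM and RFC4 at 30.8, 43.5 and 19.2 CPM, both highest on day 6. Of these, RFC4 fell in the second step (2.26-fold [1.92 to 2.67]), and RFC2 came close, at a log2 difference of -0.94. RFC3 was at 63.8, 57 and 46.8 CPM, and RFC5 at 34.4, 27.3 and 15.8 CPM; RFC5 fell 2.17-fold [1.81 to 2.62] over the whole interval only. RFC4 overlaps EIF4A2, a gene of translation initiation at 194, 224 and 377 CPM, by 5 bases in the RefSeq table, and the part of its fragments was not tested.

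The 3 genes of RPA, which coats single-stranded DNA in replication and also in repair, neither rose nor fell in any comparison. RPA1 was at 133, 144 and 120 CPM, RPA2 at 39.8, 32.2 and 26.4 CPM and RPA3 at 33.9, 26 and 27.4 CPM. Their log2 differences from day 4 to day 10 were -0.15, -0.58 and -0.30. RPA2 was thus at a 1.51-fold [1.3 to 1.76] lower level, and with TPM its difference was -0.96, where the median of all genes was -0.31. The direction of RPA1 in the first step depended on scaling, from 0.11 with TMM to -0.24 with TPM. RPA3 overlaps UMAD1 (1.56, 1.91 and 3.48 CPM) by 1327 bases in the RefSeq annotation, and the part of its fragments was not tested.

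Genes that finish the lagging strand fell in the second step. FEN1, the flap nuclease, was at 32.4, 26.6 and 9.32 CPM and fell 2.86-fold [2.27 to 3.61]. LIG1, the ligase that seals the fragments, was at 89.8, 67.7 and 27.2 CPM and fell 2.49-fold [2.17 to 2.85]. BLM, a helicase that resolves recombination intermediates at stalled forks, was at 40.5, 20.3 and 7.35 CPM. It fell 2.77-fold [2.14 to 3.62] after day 6, and its first-step difference of -0.96 lay just inside the threshold. Without TMM factors, with TPM and with read counts, among others, it was called a fall in that step.

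Among the genes that supply deoxynucleotides, one subunit of ribonucleotide reductase fell on the CPM scale and the other did not pass the threshold. RRM2, the small subunit whose protein is limited to S phase, was at 207, 122 and 32.8 CPM on days 4, 6 and 10. It fell 3.73-fold [3.32 to 4.21] in the second step and 6.32-fold [5.64 to 7.09] over both. RRM1, the large subunit, was at 379, 283 and 241 CPM, a log2 difference of -0.65 over both steps; on the TPM scale, on which all genes had a median of -0.31, it was called a fall as well (-1.02). TK1, the cytosolic thymidine kinase of the salvage route, had the same level on days 4 and 6, 61.2 CPM, and fell 3.89-fold [3.29 to 4.63] to 15.7 CPM. In deposited TPM it was at 82.3 on day 4 and 62 on day 6. TYMS, which makes thymidylate anew, was highest on day 6: it was at 46, 78.1 and 57.8 CPM, with a first-step ratio of 1.7 [1.52 to 1.9], and passed the threshold in no comparison. Its log2 difference from day 4 to day 10 ran from -0.04 with TPM to 0.33.

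DTL, which directs the destruction of CDT1 on PCNA-loaded DNA, showed most of its fall before day 6. It was at 44.1, 15 and 11.4 CPM and fell 2.93-fold [2.47 to 3.5] in the first step, with a second-step ratio of 0.759 [0.598 to 0.961]. Of its log2 fall to day 10, 79.6% was reached by day 6. DTL overlaps INTS7, which was at 38.1, 28.4 and 28.2 CPM, by 75 bases in the RefSeq table, and the part of its fragments was not tested. CHAF1B, of the complex that places histones on new DNA, was at 30.4, 22.9 and 7.25 CPM and fell 3.16-fold [2.44 to 4.12] after day 6.

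The regulators that drive entry into S phase were low and fell in the second step. E2F1, the transcription factor, was at 13.9, 10.4 and 3.48 CPM and fell 2.97-fold [2.05 to 4.42]. CCNE1, a cyclin partner of CDK2, was at 24.4, 11.8 and 2.83 CPM. It fell 4.17-fold [2.8 to 6.4] after day 6 and 8.64-fold [5.91 to 13.1] over both steps, and its first-step difference of -0.99 was the closest to the threshold of the genes not called there. Its ratio of CPM in that step was a 2.07-fold [1.68 to 2.56] lower level. Without TMM factors and with TPM, among others, it was called a fall there. CCNE2, the sister cyclin, was at 8.81, 7.63 and 2.07 CPM and fell 3.68-fold [2.29 to 6.16] in the second step. CCNE2 overlaps INTS8 (44.9, 40.8 and 45.3 CPM) by 77 bases in the RefSeq annotation, and the part of its fragments was not tested.

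Set side by side, 25 genes fell between day 6 and day 10 and over the whole interval but not between day 4 and day 6. Of these, MCM4, CCNE1, BLM and RRM2 were called a fall in the first step in some alternatives at 2-fold. CDC6, MCM10 and POLE2 fell in both steps, and DTL in the first; with TPM the second-step difference of MCM10 was -0.82, under the threshold. Besides RFC4, RFC5 and ORC6, the remaining 13 passed the threshold on log2(CPM + 1) in no comparison: GINS3, POLA1, POLD3, PRIM1, PRIM2, RFC1, RFC2, RFC3, RPA1, RPA2, RPA3, RRM1 and TYMS. GINS3 missed it narrowly: its ratio of CPM was a 2.31-fold [1.53 to 3.53] lower level by day 6 and 2.28-fold [1.49 to 3.57] over both steps, and with read counts, TPM or no TMM factors, among others, it was called. Of the 30 genes that fell from day 4 to day 10, DTL and MCM10 had passed the midpoint of their log2 fall by day 6 (79.6% and 52.6%), followed by POLE2 (45%), CDC6 (43%), BLM (40.4%) and MCM4 (39.4%). At the other end TK1, GINS4 and MCM2 had reached at most 2.33% of it. All these shares are on TMM-scaled CPM, carry no interval and were not computed for other scalings. With TPM the first-step differences of TK1, GINS4 and MCM2 were -0.40, -0.37 and -0.41, where the median of all genes was -0.30. The 2 steps share the day 6 library.

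**Figure D3:**
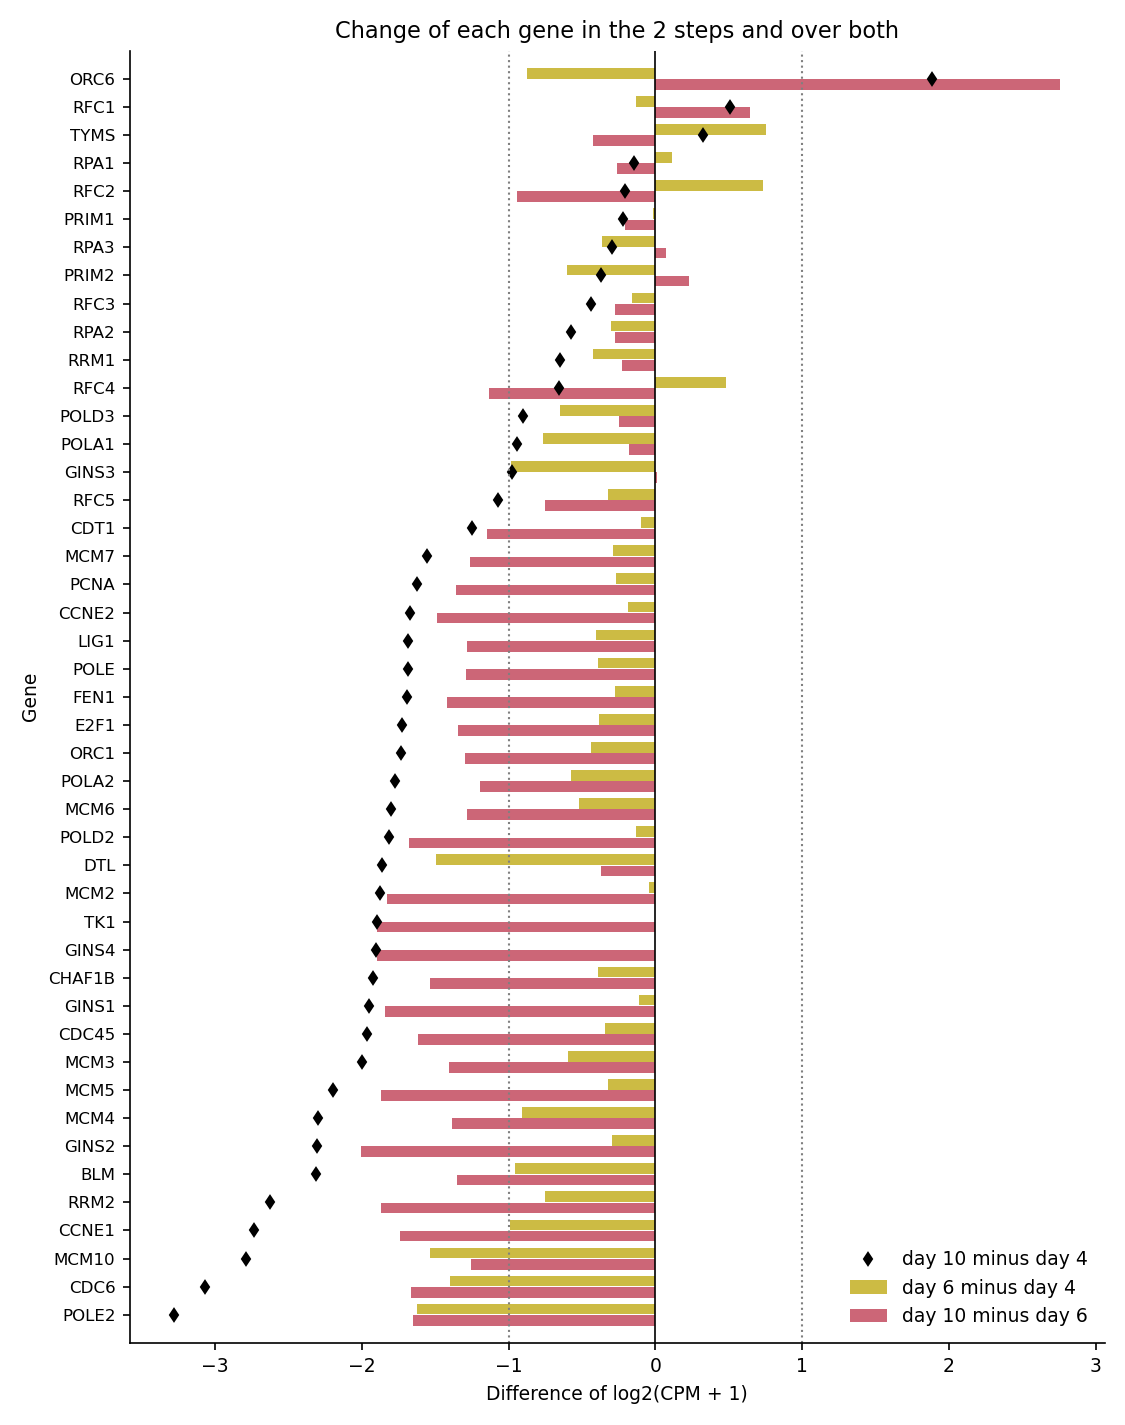
Difference of log2(CPM + 1) (horizontal axis) for each of the 45 genes (vertical axis) from day 4 to day 6 (yellow bars), from day 6 to day 10 (red bars) and over both (black diamonds), ordered by the last. Dotted lines mark a difference of 1 in either direction; 4 yellow bars pass the left line, at DTL, MCM10, CDC6 and POLE2, and 1 red bar passes the right one, at ORC6 (2.76).

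Levels per length were compared between genes within each library, on the deposited TPM. The helicase genes lay close together: on day 4 they ran from 72.9 TPM (MCM2) to 155 TPM (MCM7), a ratio of 2.13, and on day 10 from 12.5 TPM (MCM4) to 39.8 TPM (MCM7), a ratio of 3.18. MCM7 was the highest of the 6 in each library. Of the GINS subunits, GINS3 was the lowest in all 3 libraries, at 11, 3.3 and 3.6 TPM, beside 67, 48 and 11.8 TPM for GINS1. In the clamp loader RFC2 was the highest in each library, at 71.6, 92.8 and 47.9 TPM, while RFC1 was the lowest on days 4 and 6 (22.9 and 16.6 TPM) and RFC5 on day 10 (12 TPM). By rank among the 45, PCNA, RRM2 and MCM7 were highest on days 4 and 6, and PCNA, ORC6 and RRM1 on day 10. The lowest on day 10 were MCM10 and CCNE2 (1.2 TPM each) and POLE2 (0.9 TPM).

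**Figure D4:**
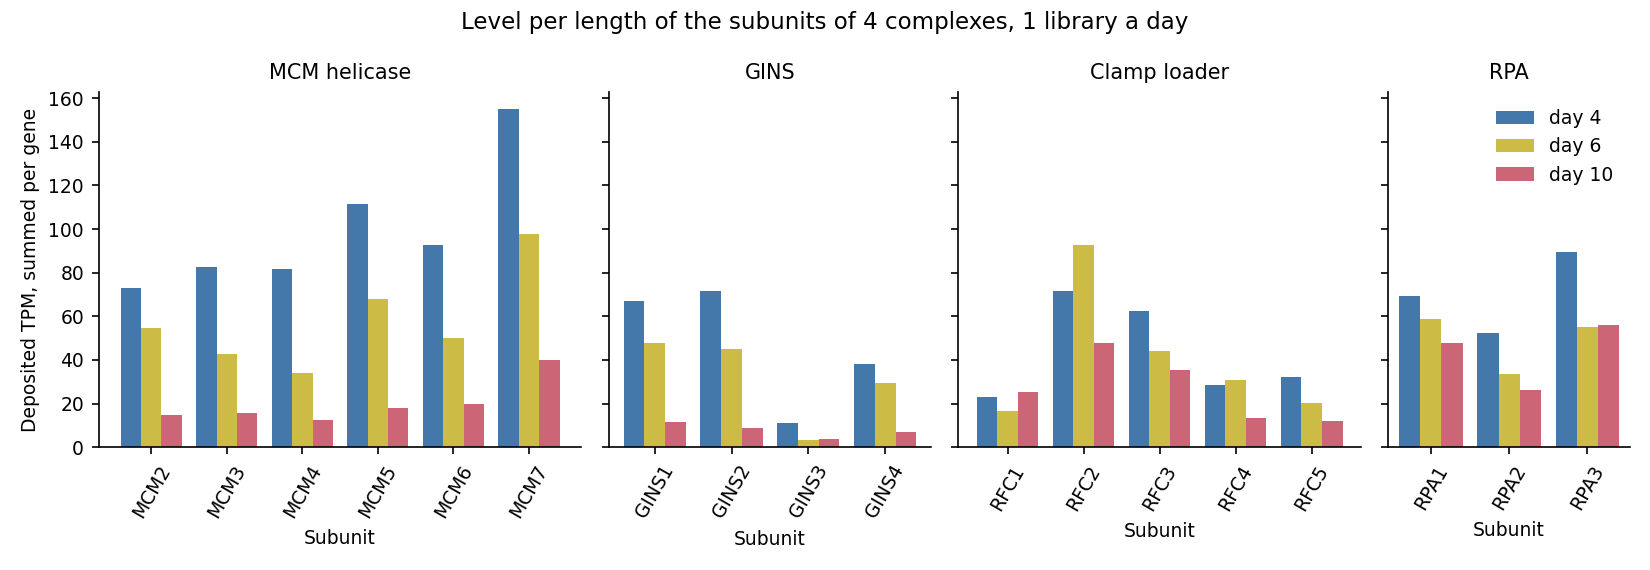
Deposited TPM summed per gene (vertical axis, from 0) for the subunits of the MCM helicase, GINS, the clamp loader and RPA, on day 4 (blue), day 6 (yellow) and day 10 (red), 1 library a day. The MCM genes run from 72.9 to 155 TPM on day 4 and from 12.5 to 39.8 TPM on day 10, and RFC2 is highest on day 6.

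Other genes of the pathway were counted in lists that hold none of the 45. Of 34 measured further replication factors 2 fell by day 6, 5 fell from day 6 to day 10 and 11 fell from day 4 to day 10, where 1 rose (medians -0.48, -0.29 and -0.80). These falls were 5.88%, 14.7% and 32.4% of the list, against 6.73%, 7.1% and 15.8% of all genes, so the share for the first step was not above that of all genes. Over both steps 17.1% of all genes rose. CLSPN and TIPIN, which protect moving forks, went from 55.9 to 10.5 CPM and from 69.7 to 15.4 CPM between days 4 and 10, falls of 5.3-fold [4.32 to 6.54] and 4.54-fold [3.83 to 5.41]. ASF1B, a histone chaperone, fell 3.55-fold [2.61 to 4.9]. ORC4, of the same complex as ORC1 and ORC6, was at 27.3, 12 and 24.8 CPM, a fall in the first step only. Its ratio of CPM in the second step was 2.06 [1.68 to 2.54], with a log2 difference of 0.98, just under the threshold. TOP1, which relieves twisting ahead of the fork, fell 2.08-fold in the first step from 419 to 201 CPM. With TPM 8 of these genes fell in the first step and 18 over both, where 13.2% and 23.9% of all genes fell.

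In the nucleotide synthesis list genes fell in both steps: 10 of 27 fell and 1 rose by day 6, 14 fell from day 6 to day 10, and 19 fell and 2 rose over both (medians -0.58, -1.003 and -1.61). Those that fell were 37%, 51.9% and 70.4% of the list, against 6.73%, 7.1% and 15.8% of all genes. Of all genes 8.06% rose by day 6, 8.25% from day 6 to day 10 and 17.1% over both. PFAS and PPAT, enzymes of purine synthesis, fell in the first step from 104 to 34.5 CPM and from 30.7 to 10.8 CPM. PFAS fell 12.6-fold [10.1 to 15.8] by day 10, UMPS, which completes the pyrimidine ring, fell 9.15-fold [6.67 to 12.8], and CTPS1, the CTP synthase, fell 7.61-fold [6.55 to 8.87]. Whether the lists differed in timing was not tested.

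In the E2F and RB network of 27 measured genes 13 fell and 2 rose over both steps (median -0.79). In the first step 4 fell, and in the second 6 fell and 1 rose. The falls were 14.8% and 22.2% of the list in the 2 steps and 48.15% over both, against 6.73%, 7.1% and 15.8% of all genes. Of all genes 8.25% rose in the second step and 17.1% over both, so rises in this list were not above that share. The genes of the list that rose over both steps were 2 members of the RB family, which hold E2F factors inactive: RB1 was at 34.4, 39.3 and 116 CPM, a rise of 3.37-fold [3 to 3.79], and RBL2 at 31.1, 49.6 and 91.3 CPM, a rise of 2.93-fold [2.59 to 3.33]. MYBL2, a transcription factor of S phase, fell 6.74-fold [5.5 to 8.33], CDC25A, the phosphatase that activates CDK2, 6.66-fold [4.71 to 9.68], and SKP2, which marks the inhibitor CDKN1B for destruction, 6.36-fold [4.67 to 8.85]. CDK2 was at 55.9, 21.9 and 24.6 CPM and fell in the first step. Of 5 CDK inhibitors 3 rose by day 6, 2 from day 6 to day 10 and 3 over both, where 8.06%, 8.25% and 17.1% of all genes rose. The count over both was 2 in place of 3 without TMM factors and with TPM, where 15.0% and 11.2% of all genes rose, and in other alternatives. CDKN2D was at 2.2, 9.54 and 22 CPM, a rise of 10-fold [6.56 to 15.9], and CDKN2B at 4.5, 12.8 and 25.1 CPM. CDKN1A was at 102, 76.7 and 167 CPM, a rise in the second step alone.

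G2 and M phase genes, the division genes closest to these in the cell cycle, fell in 1 of 41 cases by day 6, in 12 from day 6 to day 10 and in 18 over both, with 0 rising in any comparison and medians of -0.19, -0.67 and -0.78. These falls were 2.44%, 29.3% and 43.9% of the list, against 6.73%, 7.1% and 15.8% of all genes. In the first step the share of the list thus lay below that of all genes. AURKB, a kinase of chromosome segregation, was at 62.1, 58.6 and 13.5 CPM, and CDC20, which activates the anaphase ubiquitin ligase, at 305, 222 and 77.9 CPM. With 1 library a stage, the difference between these counts and those of the replication genes was not tested.

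**Figure D5:**
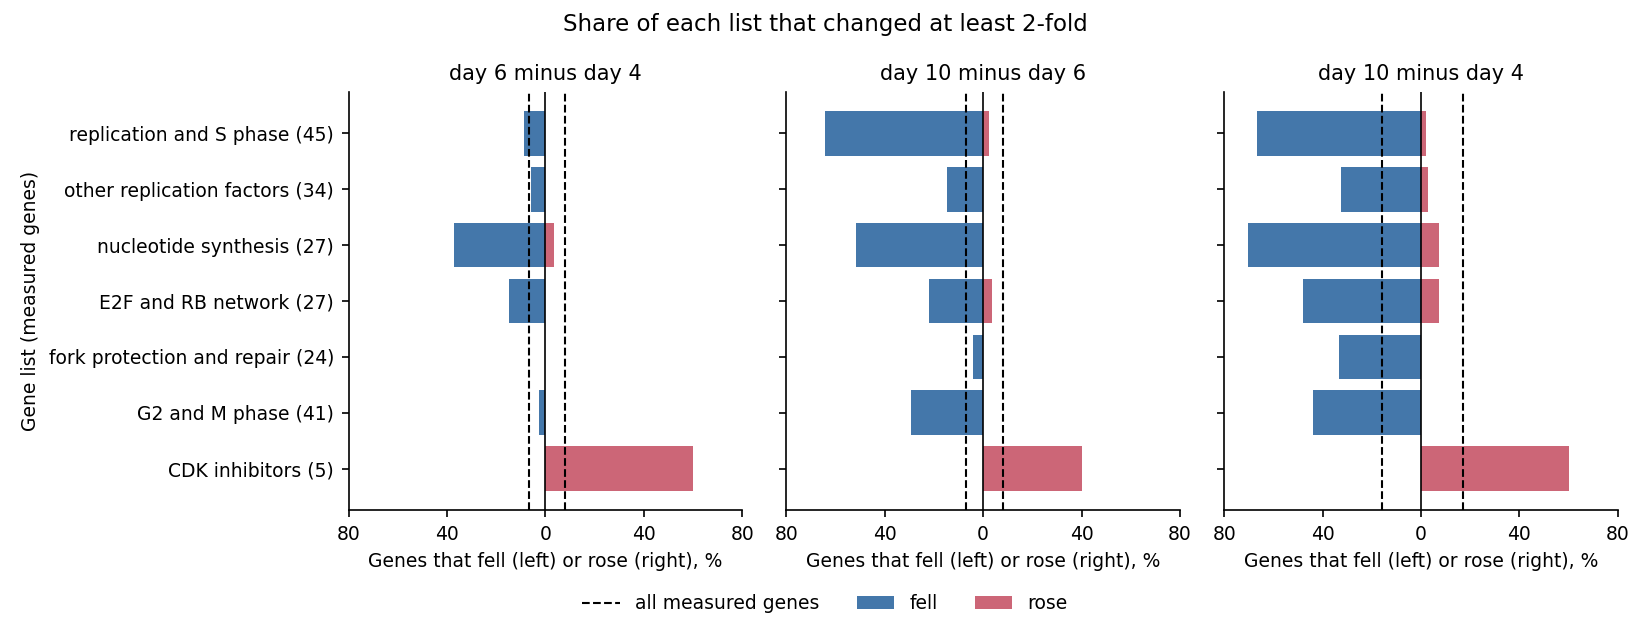
Share of the measured genes of each list (vertical axis, number in parentheses) that fell (blue, left) or rose (red, right) at least 2-fold, in %, in the 3 comparisons; dashed lines give the same shares over all 12818 measured genes. Replication and S phase genes pass from 8.89% falling in the first step to 64.4% in the second, and the CDK inhibitors, only 5 genes, are the one list shown in which more rose than fell.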

How the data were processed

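RNA was sequenced from 3 cultures, 1 for each stage, from total RNA with a TruSeq kit, per the labels' protocols. Each deposited table gives 1 line per coding sequence, 38696 in all. The fragment and read counts, named so in the file headers, are expected counts that the authors made before they deposited the tables, many of them fractional, per the file headers and values. The authors' tables also hold a raw transcript count, a coverage-like signal, and FPKM, RPKM and TPM columns, normalized for length and depth; the signal, FPKM and RPKM columns were not used. The submitters' processing notes name the build OryCun2.0. How reads were aligned and counted, and with which strand setting, is not given in the sources used here. Genes that overlap therefore cannot be told apart: 8 of the 45 members overlap a protein-coding gene in the RefSeq gene table of mOryCun1.1, which was used for names and neighbours only and held all 45 symbols.

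Fragment counts were summed per gene name, rounded and scaled to CPM with TMM factors of 1.071, 0.958 and 0.974 (edgeR 4.0.16, R 4.3.3). As 1 coding sequence stands for 33 members and up to 5 for the other 12, counts split among coding sequences are joined again by the sum; 5 of the 33 have a fractional count in a library. A gene was measured at 1 CPM or more in any library. Intervals are exact Clopper-Pearson intervals (95%) of the fragments of both libraries, and exact Poisson intervals for single levels in the plot; PCR copies are not independent molecules, so they cover counting error only. Members and lists were chosen with earlier results of these data known. Of the other lists, at most 3 risen and 3 fallen genes per comparison could be named, those that moved farthest, where at least 2-fold and at 10 CPM or more; a gene overlapping a member is named beside it. The design assumed counts, while many deposited values are fractional, and they were treated as described. In all 12 alternatives were run. The values of a further named gene of the fork protection and repair list are not reported here.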

Additional observations from a re-analysis of the deposited data

How the results depend on the processing

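In the 12 alternatives, no member called in a comparison changed the sign of its difference. Except for the first-step count of falls, member counts and medians stayed near those reported in several alternatives. These were DESeq2 size factors, read counts in place of fragments, a pseudocount of 0.5 and the largest coding sequence alone. No minimum, a minimum of 5 CPM and centring on the median of all genes were the others. Under the 4 named first, 6 members fell in the first step in place of 4. Of all genes 7.03%, 6.77%, 7.98% and 6.48% fell there. From day 4 to day 6, 4 members fell; the count was 9 without TMM factors, 12 with TPM, 14 at a 1.5-fold threshold (where 2 rose) and 0 at 4-fold; of all genes 18.0% fell and 19.6% rose at 1.5-fold and 0.671% fell at 4-fold. From day 6 to day 10, 29 fell; the count was 1 at 4-fold (GINS2; 0.25% of all genes), and at 1.5-fold 2 rose (19.1% of all genes). From day 4 to day 10, 30 fell; the count was 9 at 4-fold, where 0 rose (3.09% and 4.7% of all genes). With TPM the medians of the first step and of the whole interval were -0.70 and -1.99, in place of -0.37 and -1.69, while the median of all genes lay at -0.30 and -0.31. With a pseudocount of 5 the median of the second step was -1.001, and MCM10, CDT1, POLE2, E2F1, CCNE2 and ORC1 lost their call there; over both steps RFC5 and CCNE2 did. Of the other lists, TPM gave 7 falls in place of 4 in the E2F and RB network and 4 in place of 1 among G2 and M phase genes by day 6. With TPM 13.2% of all genes fell in that step, above the share of the G2 and M phase list. Without TMM 5 in place of 2 further replication factors fell in that step, where 9.49% of all genes fell. With a pseudocount of 5, 1 CDK inhibitor rose in each step, in place of 3 and 2, where 3.68% and 4.38% of all genes rose. At that pseudocount 2 fork protection and repair genes fell over both steps, in place of 8, where 10.3% of all genes fell. The cause of these shifts was not tested. Depth limits the lowest genes: POLE2 had 18 fragments on day 10.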

Other observations

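Some relatives of the S phase enzymes rose while those fell. TK2, the mitochondrial thymidine kinase, was at 30.1, 66.6 and 89.1 CPM on days 4, 6 and 10, a rise of 2.96-fold [2.61 to 3.37], where the cytosolic TK1 fell. RRM2B, the ribonucleotide reductase subunit used in resting cells and after DNA damage, was at 12.1, 15.7 and 26.3 CPM, a rise of 2.17-fold [1.76 to 2.69], where RRM2 fell. It lay close to the threshold (log2 difference 1.06), and the count of nucleotide synthesis genes that rose over both steps was 1 in place of 2 without TMM factors, with TPM, with a pseudocount of 5 and with the largest coding sequence. POLD4, the smallest subunit of polymerase delta, was at 18.6, 28.7 and 48.6 CPM, a rise of 2.61-fold [2.21 to 3.08]. There POLD2 fell and POLD3 passed the threshold on log2(CPM + 1) in no comparison. Rises over both steps numbered 2 of 27 in the nucleotide synthesis list and 1 of 34 among further replication factors. Both shares lay below the 17.1% of all genes that rose. These genes were picked out after their values were seen, and with 1 library a stage the pairs have no replicate check.

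Fork protection and repair genes, none of them among the 45, numbered 24 measured, of which 0 fell by day 6, 1 fell from day 6 to day 10 and 8 fell over both, with 0 rising (medians -0.37, -0.34 and -0.69). Over all genes 6.73%, 7.1% and 15.8% fell, so the shares of this list that fell in the single steps, 0% and 4.17%, lay below those of all genes, and that over both was 33.3%. Rises over all genes were 8.06%, 8.25% and 17.1%. FANCA, of the crosslink repair pathway, fell 2.94-fold over both steps [2.22 to 3.93], and RAD54L, of recombination, fell 2.52-fold [1.95 to 3.28].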
